A study of Mus musculus with 6 samples.

Results

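The mouse cell adhesion genes Cadm1, Cadm3 and Cadm4 and the receptor gene Ackr1, which overlaps the end of Cadm3 on chromosome 1, were followed across the libraries, 4 of the 24063 gene symbols counted. Cadm1, Cadm4 and Ackr1 were taken for their family or their position. Cadm3 was chosen by its log2 fold change between the groups in these same libraries, so its difference is described and not tested. The study sequenced RNA of LSK cells, the fraction of bone marrow without lineage markers and with Kit and Sca1 on its surface, which holds haematopoietic stem cells and early progenitors. In all, 3 libraries were labelled Arid2fl/fl:MxCre+ (knockout) and 3 MxCre+ (control), all on a C57/BL6 background. Both groups carried the Mx1-Cre transgene and both received pIpC, a synthetic double-stranded RNA that switches on the Mx1 promoter through interferon, at 6 to 8 weeks of age, and cells were sorted 6 weeks later. Mx1-Cre acts in cells that respond to interferon, so deletion is not limited to blood cells. Since no label ties a library to an animal, the p-values reflect variation among libraries, which may be technical.

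Cadm proteins, also called nectin-like molecules or SynCAMs, are single-pass membrane proteins with immunoglobulin-like domains that bind each other across cell contacts, either like to like or between family members. Their short cytoplasmic tails bind band 4.1 proteins and PDZ-domain scaffolds of the MAGUK family. Cadm1 is the broadly expressed member, known from mast cells, dendritic cells that take up dead cells, epithelium and synapses. Cadm3 and Cadm4 are best known from axons and the glia that wrap them. Ackr1, the Duffy antigen of red cells, is an atypical chemokine receptor. It binds many inflammatory chemokines without signalling through G proteins and is found on erythroid cells, on macrophages of the marrow and on the endothelium of small veins.

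The libraries held 12408966 to 28185678 counted reads. Arid2 itself had 156 ± 6.2 TMM-scaled CPM, the measure of level used throughout (counts relative to library size; SD, n = 3) in the libraries labelled knockout and 155.8 ± 8.5 CPM (SD, n = 3) in controls. Counts summed over a gene cannot reveal the loss of one exon, so all directions rest on the labels. All 3 libraries labelled knockout and control replicate 2 came from females by their Xist and Y-linked reads, and control replicates 1 and 3 from males. A list of surface genes held Kit, Ly6a (Sca1), Cd34, Flt3, Slamf1, Cd48, Procr and Ptprc, of which only Kit and Ly6a belong to the sort gate. The list summed to 1593 to 1697 CPM in the libraries labelled knockout and to 1911 to 2178 CPM in controls, without overlap. By edgeR, 8.42% of all genes tested were called between the groups, 3.85% higher and 4.58% lower. Of these 8 surface genes, 3 were lower (Ly6a, Cd34 and Flt3), of which Ly6a was lost in each of the 6 fits with 1 library left out. Of 6 lineage genes tested, Itgam, an integrin of myeloid cells, was higher, and its call was lost in 4 of those fits. Macrophage markers (12 genes, 11 tested, with Marco, Csf1r and Cd68 higher, the last 2 lost in 4 of those fits) summed to 671.6 to 1391 CPM against 383.6 to 568.9 CPM, again without overlap. Marco had 1, 7 and 3 reads in control replicates 1 to 3. It passed the filter on low counts only through the libraries labelled knockout, where it was high. Erythroblast markers (13 genes, 6 higher, of which Hba-a1 and Hba-a2 have the same count in each library) summed to 310.5 to 688.4 against 228.4 to 392.3 CPM, and none of the markers of either list was without reads. With a sex term in the model, 0 genes of any of these lists passed (edgeR), where 0.314% of all genes did. In bulk RNA, fewer cells of a type and less RNA per cell cannot be told apart.

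The arrangement of Cadm3 and Ackr1 bears on how their counts can be read. In GENCODE M21 on mm10, Cadm3 (ENSMUSG00000005338) lies on the minus strand of chromosome 1 from 173333258 to 173367695, and Ackr1 (ENSMUSG00000037872) on the same strand from 173331886 to 173333750. Of the 2 protein-coding Cadm3 transcripts, Cadm3-201 ends before Ackr1 begins, whereas Cadm3-202 has a long last exon that reaches into Ackr1. It shares 361 exonic bases with Ackr1 when all Ackr1 transcripts are counted. Among protein-coding transcripts alone, 284 bases are shared, which is 21.5% of the exonic bases of Ackr1 and 5.4% of those of Cadm3. The RefSeq span of Cadm3, from 173331892 to 173368139, takes in nearly all of Ackr1. Aim2, a DNA sensor gene, overlaps Cadm3 on the opposite strand with 0 shared exonic bases. The sources used here do not say how reads over shared bases were assigned.

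The sequences at the start sites of the pair are shown because the pair differed between the groups in the same direction. The stretch before the Cadm3 start used for the RefSeq promoter windows, which is the start of Cadm3-202 and lies inside the longer RefSeq span (GRCm38.p6, chr1:173367696-173367945, minus strand) is printed 5′ to 3′, with matches to the CACC box CCACACCC, bound by KLF factors, in capitals.
Cadm3 upstream: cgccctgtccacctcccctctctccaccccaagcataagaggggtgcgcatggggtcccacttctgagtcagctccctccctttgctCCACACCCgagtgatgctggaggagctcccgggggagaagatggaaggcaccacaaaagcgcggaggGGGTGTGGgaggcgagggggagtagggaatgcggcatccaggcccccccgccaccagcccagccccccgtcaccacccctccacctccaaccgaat
The second is a stretch of 30 bases (chr1:173333462-173333491, minus strand) just after the Ackr1 start used for the RefSeq promoter windows. That start, at 173333503, lies inside the longer GENCODE span of Ackr1. A match to the GATA motif GATAAG on the reverse strand is in capitals.
Ackr1 start: tagccctgggcaCTTATCttggagccacag

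The Cadm3 window held the CACC box once on each strand, at 163 to 156 and at 96 to 89 bases before the start site. Of 32851 RefSeq promoter windows of the same length (250 bases before to 50 after a start), 3.56% held that box on either strand and 7.44% held GATAAG. The Ackr1 window had GATAAG, and the Cadm3 and Cadm4 windows did not. The window of Ackr1 lies wholly within the last exon of Cadm3-202, at 50% G and C with 4 CpG. The Cadm3 window had 66.7% G and C with 17 CpG, and the Cadm4 window 77.0% with 40 CpG, against medians of 52.7% and 7 over all windows. An ETS motif, CAGGAAG, was in the Ackr1 window and in 13.3% of all windows, and the Sp1 motif GCCCCGCC, in 14.2% of all windows, was in none of the 3. The motifs were chosen after the sequences were seen, the capitals shown do not overlap, and a match describes letters and not binding.

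Cadm3 was far higher in the libraries labelled knockout. It had 11.8, 17.8 and 15.3 CPM in knockout replicates 1 to 3 (223, 441 and 191 reads) and 1.72, 2.10 and 1.24 CPM in control replicates 1 to 3 (28, 59 and 18 reads). The lowest library labelled knockout thus stood well above the highest control, and that control was the female one. The means were 14.97 ± 3.02 and 1.69 ± 0.43 CPM (SD, n = 3 each), a log2 fold change of 3.11 (SE 0.24), or 8.64-fold (95% interval 5.88 to 12.7). Because this change chose the gene, no test is given. For scale, 8 of the 13679 genes tested had a higher log2 fold change. A sex term in the model leaves control replicate 2, the one female control, as the reference for the libraries labelled knockout, and the log2 fold change of Cadm3 was 2.83 (SE 0.35).

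Ackr1 was higher in the same libraries at a lower level. It had 2.17, 2.18 and 2.01 CPM in knockout replicates 1 to 3 (41, 54 and 25 reads) and 0.307, 0.249 and 0.482 CPM in control replicates 1 to 3 (5, 7 and 7 reads). The groups did not overlap, at means of 2.12 ± 0.10 and 0.346 ± 0.121 CPM (SD, n = 3 each). The log2 fold change was 2.66 (SE 0.35), or 6.32-fold (95% interval 3.64 to 11.0; edgeR adjusted p = 0.00528 over all genes tested). Ackr1 reached 10 reads only in the libraries labelled knockout and so passed the filter on low counts through them alone. Against this, 3.85% of all genes tested were called higher, and 31.2% had no overlap between the groups (15.1% higher and 16.1% lower). With the sex term the log2 fold change was 3.06 (SE 0.53) and the call was lost (edgeR adjusted p = 0.0817). With that term 0.314% of all genes were called, 0.0512% higher and 0.263% lower.

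**Figure D1:**
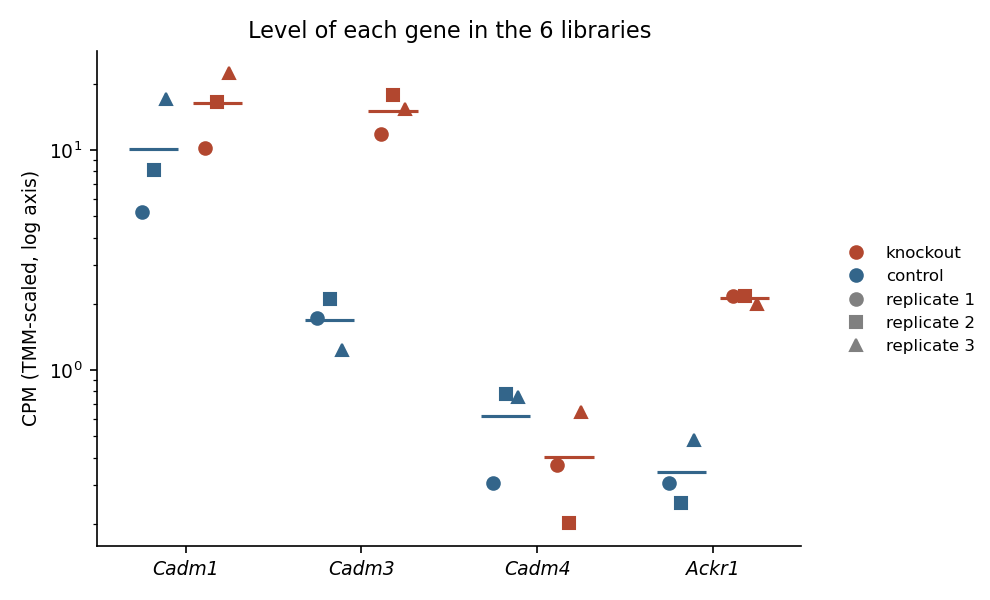
Level of Cadm1, Cadm3, Cadm4 and Ackr1 in CPM on a log axis, with 1 point per library (red knockout, blue control, symbol by replicate number) and a line at each group mean. Cadm3 and Ackr1 do not overlap between the groups (11.8 to 17.8 against 1.24 to 2.10 CPM, and 2.01 to 2.18 against 0.249 to 0.482 CPM), whereas Cadm1 and Cadm4 do.

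Since the pair shares bases, the split of its reads was compared between libraries. Ackr1 took 15.5%, 10.9% and 11.6% of the reads of the pair in knockout replicates 1 to 3, and 15.2%, 10.6% and 28.0% in control replicates 1 to 3. Control replicate 3 stands highest but rests on 25 reads, with a 95% Wilson interval of 14.3% to 47.6%. Summed over libraries, the share was 12.3% (95% Wilson interval 10.4% to 14.5%) in the libraries labelled knockout and 15.3% (10.03% to 22.7%) in controls. The intervals cover counting error only, on 975 and 124 summed reads. These shares contain the Cadm3 counts by which that gene was chosen and are given without a test. Whether part of the Ackr1 count came from the long Cadm3 transcript was not tested.

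**Figure D2:**
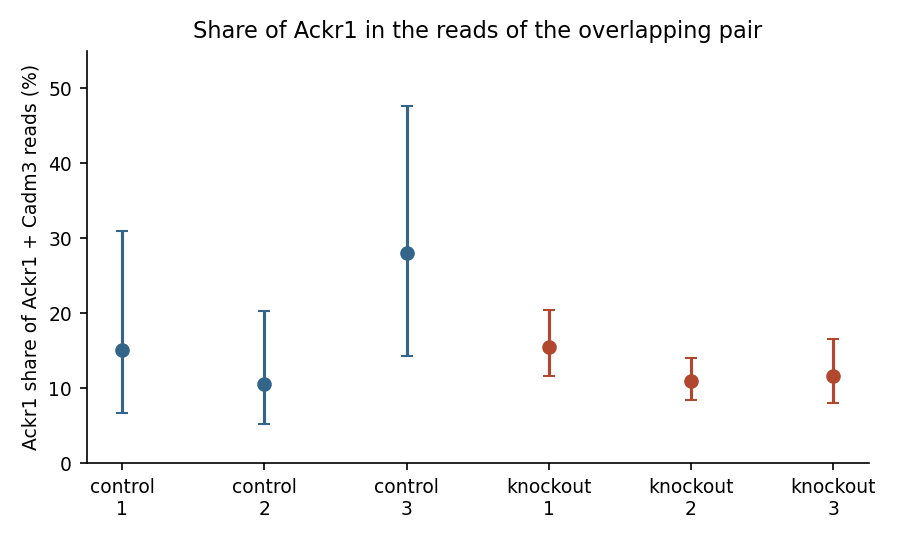
Share of Ackr1 in the reads of Ackr1 and Cadm3 together, in percent, for each library, with 95% Wilson intervals as bars. Shares run from 10.9% to 15.5% in the libraries labelled knockout and from 10.6% to 28.0% in controls, and the intervals of the controls are wide because they rest on 25 to 66 reads.

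Cadm1 (ENSMUSG00000032076, chromosome 9, 47530173 to 47857637, plus strand, mm10) had the highest count of the family in controls and did not pass the test. It had 10.3, 16.5 and 22.3 CPM in knockout replicates 1 to 3 and 5.22, 8.14 and 17.0 CPM in control replicates 1 to 3. Control replicate 3 exceeded 2 of the 3 libraries labelled knockout, so the groups overlapped. The log2 fold change was 0.70 (SE 0.42; 95% interval −0.25 to 1.65; edgeR adjusted p = 0.344). It was 0.39 without control replicate 1 and 1.26 without control replicate 3, and neither passed (edgeR adjusted p = 0.614 and 0.0585). The interval takes in a rise of 3.13-fold as well as a fall to 0.841-fold, so the data do not show that Cadm1 was alike in the groups.

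Cadm1 is known from mast cells and from dendritic cells, and markers of both were measured. Of 9 dendritic cell markers tested, Xcr1, Batf3 and Bst2 were higher, Flt3 was lower and 5 did not pass (median log2 fold change 0.29), against 3.85% higher and 4.58% lower of all genes. Xcr1, the chemokine receptor that marks cross-presenting dendritic cells, had 17.0, 22.1 and 19.7 CPM in the libraries labelled knockout and 6.21, 7.57 and 14.1 CPM in controls (log2 fold change 1.09, edgeR adjusted p = 0.0468). With 1 library left out, the calls of Xcr1 and Batf3 were lost in 5 of 6 fits, that of Bst2 in 3 and that of Flt3 in 2. Clec9a, the receptor of the same cells for dead cell material, had 25.7, 47.5 and 44.5 against 13.5, 17.9 and 26.5 CPM (log2 fold change 1.03, edgeR adjusted p = 0.0583). The groups of Clec9a overlapped. Of the other dendritic cell markers that did not pass, Irf8 (log2 fold change 0.29) was positive. Itgae (−0.50), Tcf4 (−0.22) and Ccr9 (−0.78) were negative. Of 7 mast cell and basophil markers tested, Cpa3, Mcpt8 and Gata2 were lower, 0 were higher and 4 did not pass (median −0.71). Among those 4, Hdc (log2 fold change 0.63, without overlap between the groups) and Fcer1a (0.24) were positive. Ms4a2 (−0.67) and Prss34 (−1.09) were negative. Mcpt8 lost its call in 4 of those 6 fits, and Cpa3 and Gata2 in 2 each. With the sex term 0 genes of either list passed (edgeR; 0.314% of all genes did). The summed levels of both lists overlapped between the groups (718.3 to 1009 against 860.6 to 950.2 CPM for dendritic cells, and 448.8 to 601.8 against 541.5 to 874.6 CPM for mast cells and basophils). Their part in the Cadm1 values was not tested.

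Cadm4 (ENSMUSG00000054793, chromosome 7, 24482023 to 24504539, plus strand, mm10) was close to the limit of counting. It had 7, 5 and 8 reads in knockout replicates 1 to 3 and 5, 22 and 11 reads in control replicates 1 to 3, or 0.37, 0.202 and 0.642 against 0.307, 0.782 and 0.758 CPM. The groups overlapped, and the log2 fold change of −0.75 (SE 0.56; 95% interval −2.03 to 0.53) did not pass (edgeR adjusted p = 0.455). Cadm2, the remaining family member, had 2 reads in all, both in control replicate 2, and was not tested.

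The make-up of the family differed between the groups. Of the reads of Cadm1, Cadm3 and Cadm4, Cadm3 made up 52.6%, 51.5% and 40.0% in knockout replicates 1 to 3 and 23.7%, 19.0% and 6.5% in control replicates 1 to 3, with no overlap. Cadm1 made up 45.8%, 47.9% and 58.3% in the libraries labelled knockout and 72.0%, 73.9% and 89.5% in controls. The share of Cadm1 was thus smaller in the libraries labelled knockout, while its mean level was 16.4 ± 6.0 CPM there and 10.1 ± 6.1 CPM in controls (SD, n = 3 each). Family reads summed to 31.7 ± 8.3 against 12.4 ± 6.0 CPM (SD, n = 3 each). These shares contain the change by which Cadm3 was chosen and are given without a test.

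Per kilobase of protein-coding exon, the order of the genes also differed. In controls Cadm1 led with 1.76 ± 1.07 CPM per kb, ahead of Cadm3 (0.321 ± 0.082), Cadm4 (0.285 ± 0.124) and Ackr1 (0.261 ± 0.092 CPM per kb; SD, n = 3 each), and the last 3 did not differ beyond their spread. In the libraries labelled knockout, Cadm3 (2.85 ± 0.57) and Cadm1 (2.84 ± 1.05) stood level, ahead of Ackr1 (1.60 ± 0.07) and Cadm4 (0.187 ± 0.103 CPM per kb; SD, n = 3 each). Over all annotated exons, where Cadm1 is 10440 bases and not 5755, Cadm3 stood above Cadm1 in these libraries (2.06 ± 0.42 against 1.57 ± 0.58 CPM per kb), within their spread. Which transcripts the cells used is not shown by counts per gene.

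Ligands and receptors of the family were taken from a list of nectins, nectin-like proteins and the lymphocyte receptors that bind them. Of the 8 tested besides the Cadm genes, 1 was higher, 0 were lower and 7 did not pass, against 3.85% higher and 4.58% lower of all genes. Their median log2 fold change was 0.38, against −0.0016 over all genes tested. The gene that rose was Cd226, also called DNAM-1, an activating receptor for Pvr and nectin 2 on lymphocytes and myeloid cells. It had 3.81, 7.54 and 5.94 CPM in knockout replicates 1 to 3 and 1.60, 1.46 and 0.895 CPM in control replicates 1 to 3, without overlap. Its log2 fold change was 2.11 (SE 0.33; edgeR adjusted p = 0.00976), and 1.98 with the sex term, where it did not pass (edgeR adjusted p = 0.188). It kept its call in each of the 6 fits with 1 library left out.

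The ligands of Cd226 did not pass. Pvrl2, now Nectin2, had 9.41, 9.15 and 6.66 against 3.20, 4.37 and 7.44 CPM (log2 fold change 0.77), and Pvr had 8.72 ± 1.42 against 10.5 ± 1.1 CPM (SD, n = 3 each). Tigit and Cd96, which compete with Cd226 for these ligands, had log2 fold changes of 0.76 and −0.46. Pvrl3, now Nectin3, had 0.264, 0.121 and 0 CPM in the libraries labelled knockout and 0.799, 0.711 and 0.758 CPM in controls. The groups of Pvrl3 did not overlap, but its log2 fold change of −2.36 (SE 0.62) missed the threshold (edgeR adjusted p = 0.0528), and Pvrl3 passed the filter on low counts through the group where it was higher. Crtam, the receptor for Cadm1 on activated lymphocytes, had 0.413 ± 0.057 and 0.419 ± 0.189 CPM (SD, n = 3 each) and was too low to test.

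**Figure D3:**
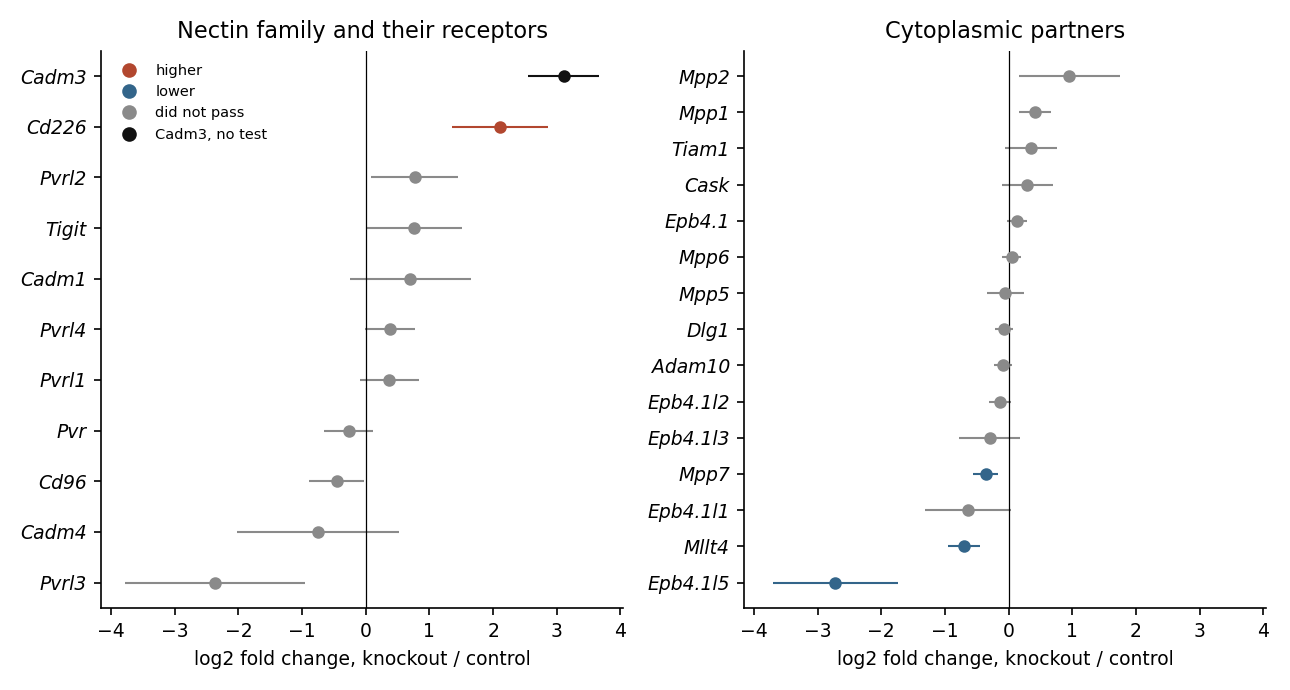
Log2 fold change of knockout over control with its 95% interval for the nectin family with its receptors (left) and for cytoplasmic partners of Cadm proteins (right). Cd226 is the one gene of the left panel that passed higher (2.11), Cadm3 is drawn without a test, and Epb4.1l5, Mllt4 and Mpp7 passed lower (−2.73, −0.70 and −0.36).

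Cytoplasmic partners were a list of band 4.1 proteins, MAGUK scaffolds and further proteins known to act with Cadm or nectin tails. Of 15 tested, 0 were higher, 3 lower and 12 did not pass (median −0.07), where 4.58% of all genes were lower. Epb4.1l5, a band 4.1 protein of epithelial polarity, had 0.159, 0.565 and 0.401 CPM in the libraries labelled knockout and 3.07, 2.70 and 1.93 CPM in controls, without overlap. Its log2 fold change was −2.73 (SE 0.43; edgeR adjusted p = 0.01). With 3, 14 and 5 reads against 50, 76 and 28, Epb4.1l5 passed the filter on low counts through the controls, where it was high. Mllt4, now Afdn, encodes afadin, the adaptor that ties nectins to actin. It had 18.1, 18.4 and 18.9 against 27.5, 28.1 and 34.5 CPM and a log2 fold change of −0.70 (SE 0.11; edgeR adjusted p = 0.01), and its call was lost without knockout replicate 2. Mpp7, a MAGUK scaffold, had a log2 fold change of −0.36 (edgeR adjusted p = 0.0379) and lost its call in each of the 6 fits with 1 library left out.

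The partners best known for Cadm1 itself did not pass. Epb4.1l3, the band 4.1 protein that binds its tail, had 9.60 ± 1.46 against 11.8 ± 3.2 CPM (SD, n = 3 each). Cask had a log2 fold change of 0.29 and Mpp6 of 0.04. Adam10, a protease that sheds the Cadm1 ectodomain, had 240.7 ± 8.9 against 256.7 ± 11.2 CPM (SD, n = 3 each). With the sex term 0 genes of either list passed (edgeR), where 0.314% of all genes did. The directions of Cd226, Epb4.1l5 and Mllt4 were kept there, with log2 fold changes of 1.98, −2.79 and −0.61.

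For Ackr1, chemokines that it binds were listed. Of 10, 5 were abundant enough to test, and Ccl11 and Cxcl5 had no read in any library. Ccl5 was higher, with 8.46, 11.0 and 14.8 against 6.52, 5.83 and 5.65 CPM (log2 fold change 0.92, edgeR adjusted p = 0.0376). Ppbp, a platelet chemokine, was lower, with 0.317, 0.202 and 0.321 against 1.17, 1.28 and 0.895 CPM (log2 fold change −2.03, edgeR adjusted p = 0.0215). With 6, 5 and 4 reads against 19, 36 and 13, Ppbp reached 10 reads only in the controls and passed the filter through them alone. The other 3 did not pass, and each of the calls was lost in 5 of the 6 fits with 1 library left out. Over all genes tested, 3.85% were higher and 4.58% lower. Of the other atypical and decoy receptors listed, 3 were tested and 0 passed (edgeR), where 8.42% of all genes did. Ackr4 had 3.08 ± 0.71 against 2.63 ± 0.56 CPM (SD, n = 3 each), while Ackr2 and Ackr3 had 22 and 5 reads in all.

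Cells known to carry Ackr1 were followed by their markers. Among erythroblast genes, Hbb-bs, an adult globin, had 36.4, 56.2 and 110 CPM in knockout replicates 1 to 3 and 4.98, 4.16 and 5.58 CPM in control replicates 1 to 3. Marco, a scavenger receptor of macrophages, had 7.87, 10.6 and 22.6 against 0.0615, 0.249 and 0.207 CPM. As given above, Marco passed the filter on low counts only through the libraries labelled knockout. Of 13 erythroblast markers tested, 6 were higher and 7 did not pass. Of 11 macrophage markers tested, 3 were higher and 8 did not pass. Of 9 endothelial and stromal markers tested, 0 were higher and Emcn was lower (log2 fold change −0.67), against 3.85% higher and 4.58% lower of all genes. The Emcn call was lost in each of the 6 fits with 1 library left out. Sele, an endothelial adhesion molecule, and Plvap, a protein of endothelial diaphragms, did not pass at log2 fold changes of 0.91 and 0.99, with no overlap between the groups. Of all genes tested, 15.1% were higher without overlap. Of the other markers of this list that did not pass, Kitl (0.90) and Cxcl12 (0.05) were positive. Kdr (−0.98), Vwf (−0.39), Pecam1 (−0.11) and Selp (−0.05) were negative. DESeq2 called 2 genes of the list higher, and 833 of all 13679 genes tested. The list summed to 187.8 to 211.6 against 194.7 to 238.2 CPM. Their part in the Ackr1 values was not tested. Cadm3 is best known from nerve. Of 5 nerve and Schwann cell markers tested, 0 were higher and Prx was lower (log2 fold change −0.71), against the same 3.85% and 4.58% of all genes. The Prx call was lost in each of the 6 fits with 1 library left out. In the same list, Sox10 and S100b, markers of Schwann cells, had 4 reads each in all. The part of other cell types in the Cadm3 values was not tested.

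No other gene tested within 1 Mb had a log2 fold change as high as Cadm3 or Ackr1. Within 250 kb, the table held 9 further symbols. Of these, 6 had no read in any library, and the 3 tested did not pass. Aim2, on the opposite strand, had 64.5, 75.7 and 67.1 CPM in the libraries labelled knockout and 52.1, 53.8 and 60.3 CPM in controls. Its groups did not overlap, but its log2 fold change of 0.32 (SE 0.09) missed the threshold (edgeR adjusted p = 0.0565). Fcer1a, a receptor chain of mast cells and basophils, lies 106044 bases away. It had 14.3, 9.76 and 8.83 against 7.68, 15.6 and 4.13 CPM, with a log2 fold change of 0.24 that was −0.50 with the sex term and did not pass. Pydc4, a PYHIN gene on the other side, had a log2 fold change of 0.10, and −0.14 with the sex term.

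Over 1 Mb on either side, 20 further genes were tested, of which 4 were higher, 0 lower and 16 did not pass (median 0.41), where 3.85% of all genes were higher. The 4 were Slamf9 (log2 fold change 1.62), Igsf9 (0.79), Pyhin1 (1.18) and Ifi204 (0.88), at edgeR adjusted p of 0.0368, 0.0466, 0.0442 and 0.0354. They were named after their values were seen, and each lost its call in at least 4 of the 6 fits with 1 library left out and with the sex term. Each lies over 250 kb from Cadm3. Kcnj10, a potassium channel gene, had a log2 fold change of 1.20 (95% interval −0.17 to 2.57) and did not pass.

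**Figure D4:**
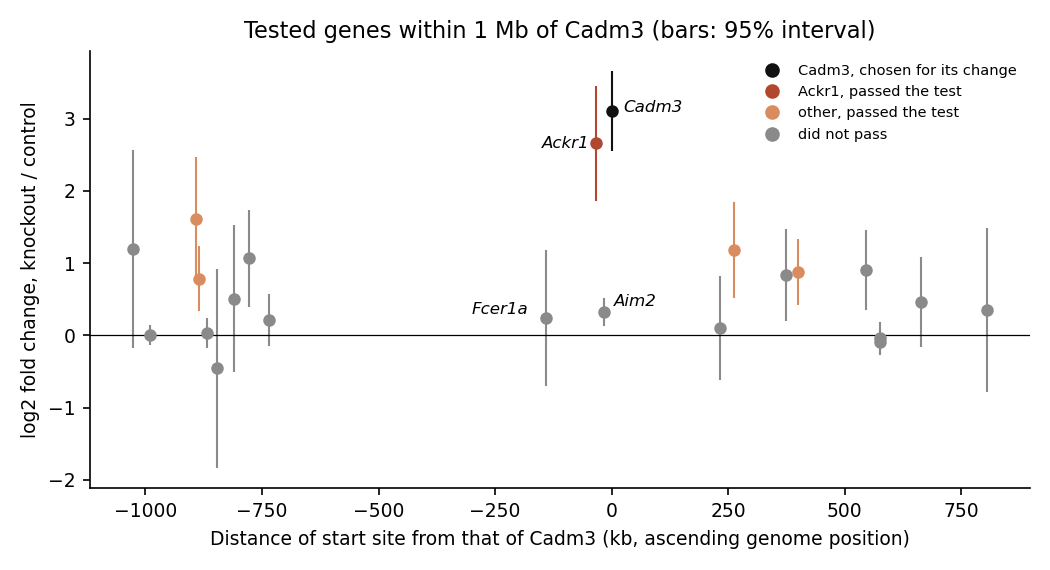
Log2 fold change of knockout over control with its 95% interval for the tested genes within 1 Mb of Cadm3, by distance of their start site from that of Cadm3 in kb. Cadm3 (3.11, no test) and Ackr1 (2.66) stand above the other genes, which run from −0.46 to 1.62, and the nearest gene on the opposite strand, Aim2, has 0.32.

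Genes with a profile like that of Cadm3 were ranked by the root mean square difference of log2 CPM (prior count 2), each gene centred on its own mean, over the 6 libraries. Predicted genes, pseudogenes, and Xist and Y-linked genes were left out. Of the others whose mean log2 CPM reached 1, the nearest were Maneal (0.353), a relative of endomannosidase, Ugt8a (0.434), a galactosyltransferase of lipid synthesis, Slc13a3 (0.518), a dicarboxylate transporter, and Cd226 (0.552). Since Cadm3 separates the groups, so do these genes, and they are listed as a description. Maneal had 5.65, 6.45 and 5.14 against 0.799, 0.604 and 0.758 CPM. Ugt8a had 7.19, 4.76 and 6.58 against 0.615, 1.35 and 0.62 CPM. Both share with Cadm3 a low and a high level that lie apart by a similar factor, with log2 fold changes of 3.02 and 2.75 (no test).

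Slc13a3 had 7.82, 8.35 and 11.6 against 1.35, 2.31 and 1.86 CPM, again without overlap. Among all 13678 other genes tested, with none left out, Ackr1 came at rank 12 by the same measure (0.593). Cadm1 came at rank 1064 and Cadm4 at rank 12912.

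**Figure D5:**
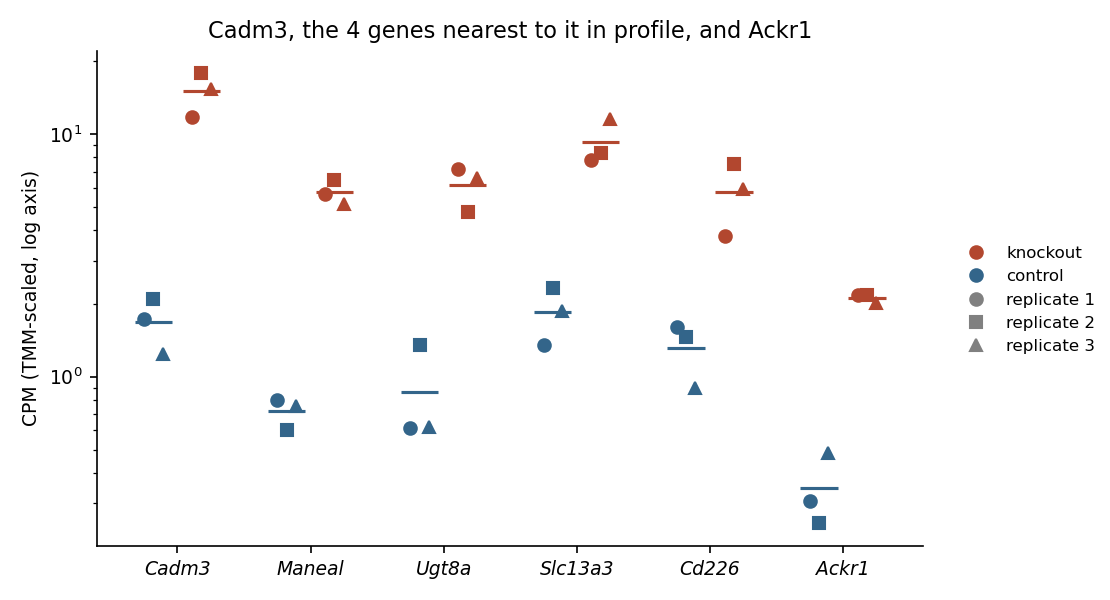
Level in CPM on a log axis of Cadm3, the 4 genes nearest to it in profile and Ackr1, with 1 point per library (red knockout, blue control, symbol by replicate number) and a line at each group mean. The 4 genes were chosen for their likeness to Cadm3, and levels in the libraries labelled knockout run from 2.01 CPM (Ackr1) to 17.8 CPM (Cadm3).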

How the data were processed

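The authors deposited whole-number counts for each gene symbol, without normalization. Per the submitters' processing notes, STAR and mm10 were used; for the counting tool, the annotation and the strandedness option, nothing is stated (not given in the sources used here). Libraries were grouped by their titles. Using edgeR 4.0.16 (R 4.3.3), filterByExpr (minimum count 10, minimum total 15) left 13679 of 24063 symbols. After TMM scaling, genes were compared by a quasi-likelihood F test on group alone, with Benjamini-Hochberg adjustment over all symbols tested and a threshold of 0.05. CPM values and 95% intervals were computed from that fit. Sex was read from Xist and Y-linked genes. No library repeated another (chi-square of at least 10.7 per degree of freedom). The code was tested on simulated data.

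Positions come from GENCODE M21 and promoter windows from RefSeq (GRCm38.p6), where 3 of the 4 genes matched. Older symbols of the table were matched to current names through RefSeq synonyms. The genes and lists were chosen with earlier results of these data known. Named are the 4 genes, tested genes within 250 kb of Cadm3, up to 4 called genes of each list, and the 4 genes nearest in profile (the rule gives 5, of which 1 is not reported here); others were named after their values were seen. The alternatives were DESeq2 size factors, upper-quartile scaling, no filter, a filter of 1 CPM in 3 libraries, DESeq2 1.42.0, limma-voom (3.58.1), the replicate block, a sex term and each library left out.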

Additional observations from a re-analysis of the deposited data

How the results depend on the processing

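The number of genes called over the whole table was 1152, and it was 2172 with the replicate block, 43 with the sex term, 1668 with DESeq2, and 290 to 984 with single libraries left out. Cadm3 kept a log2 fold change of 2.83 to 3.33 under every alternative run, and 2.95 to 3.33 with single libraries left out. Ackr1 had 2.43 to 3.06 and kept its call (adjusted p of 3.05e-05 to 0.0344) except with the sex term (3.06). With 5, 7 and 7 reads in the controls, Ackr1 passed the main filter on low counts only through the libraries labelled knockout. Its call was also kept without a filter, but all these fits draw on the same low control counts. They are not independent tests, and none addresses the bases that Ackr1 shares with Cadm3. Cadm1 passed only with the replicate block (0.78, adjusted p = 0.0142), and had 0.39 to 1.26 with single libraries left out. Cadm4 did not pass in any fit (−1.16 to −0.35) and was too low for the filter of 1 CPM. No label states that replicate numbers pair the libraries. Deviations of same-numbered libraries correlated at 0.293, −0.0048 and 0.339 across genes, and 4 of 6 libraries correlated best with their own number. These values do not settle whether the numbers mark pairs. With the sex term, Fcer1a turned to −0.50 and Pydc4 to −0.14. With single libraries left out, Fcer1a ran from −0.0998 (control replicate 3 left out) to 0.898, and Pydc4 from −0.0928 (knockout replicate 2 left out) to 0.286, with −0.0018 when control replicate 3 was left out. Of the cytoplasmic partners, 1 to 2 were lower with single libraries left out, against 3. Depth limits Cadm4, Ackr1 in controls and the split of the pair.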
